A study of Mus musculus with 2 samples.

Results

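The genes described here encode the contractile apparatus of smooth muscle: Acta2, Actg2, Myh11, Cnn1, Tagln, Myl9, Mylk, Smtn, Des and Pcp4. They were taken as every measured probe whose RefSeq accession belongs to 1 of these 10 genes. This gave 11 of 39429 probes and 10 of 21368 named genes. Smtn had 2 probes and each other gene had 1. Ureters of E14.5 mouse embryos of the NMRI strain were compared on 2 two-colour arrays, each holding 1 knockout RNA against 1 control RNA. Knockout ureters (Tbx2/Tbx3cDKO) were Tbx18(cre/+) and carried 2 floxed alleles each of Tbx2 and Tbx3, Tbx2(fl/fl) and Tbx3(fl/fl). Control ureters were Tbx18(+/+), Tbx2(fl/?) and Tbx3(fl/?). Cre recombinase was thus expressed from 1 allele of Tbx18, a gene of the mesenchyme around the ureteric epithelium. Only knockouts carried it and the controls had none, so the effect of the Cre allele and that of the deletion cannot be told apart. The question mark stands for a second control allele that the labels do not name. Array 1 paired female RNAs, with the knockout in AlexaFluor647. Array 2 paired male RNAs, with the knockout in AlexaFluor555, so a difference between the arrays by sex and one by dye cannot be told apart. The labels do not state how many embryos gave each RNA.

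Smooth muscle shortens when myosin filaments pull on actin filaments. Calcium binds calmodulin, which switches on myosin light chain kinase, and the phosphorylated light chain lets the myosin head cycle on actin. Calponin and transgelin bind the actin filament, and desmin filaments link the contractile units to each other and to the cell's anchoring plaques. Many of these genes are driven by serum response factor (Srf) bound to CArG boxes together with its coactivator myocardin (Myocd). In the ureter, the mesenchyme around the epithelium forms a muscular coat whose peristalsis carries urine to the bladder.

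All 11 probes were well above background in both channels of both arrays, at 4 of 4 spots each, and none of their 88 spots was marked as non-uniform or saturated. Over the whole array, 25934 probes, standing for 15461 named genes, passed the filter on dim probes. Between 64.3% and 71.6% of spots were well above background per RNA. The log2 ratios of the female and male pairs had a correlation of 0.59 across the kept probes, which are not independent replicates. The probe of Tbx3 was lower in the knockout, by -1.09 ± 0.10 (SD over 2 pairs, adjusted p = 0.000623 in limma). The probe of Tbx2 was higher, by 0.86 ± 0.12 (adjusted p = 0.00184), which goes against its label. The sources do not say whether either probe targets floxed sequence, so every direction below refers to the RNA labelled knockout over the RNA labelled control.

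Of the 10 genes, 7 fell in the labelled knockout, 1 rose and 2 did not pass the test (limma, adjusted p under 0.05 over all kept probes). Among all named genes, 2.03% were called lower and 2.33% higher, and among all probes 1.92% and 1.88%. The genes that fell were Actg2, Myh11, Cnn1, Acta2, Tagln, Myl9 and Mylk, the gene that rose was Pcp4, and the genes that did not pass were Smtn and Des. The median log2 ratio over the 10 genes was -2.05, against -0.0015 over all kept probes. The 7 losses were of unequal size. They ranged from 11.7-fold for Actg2 to 2.63-fold for Mylk. In whole ureters, fewer smooth muscle cells and less RNA per cell cannot be told apart.

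**Figure D1:**
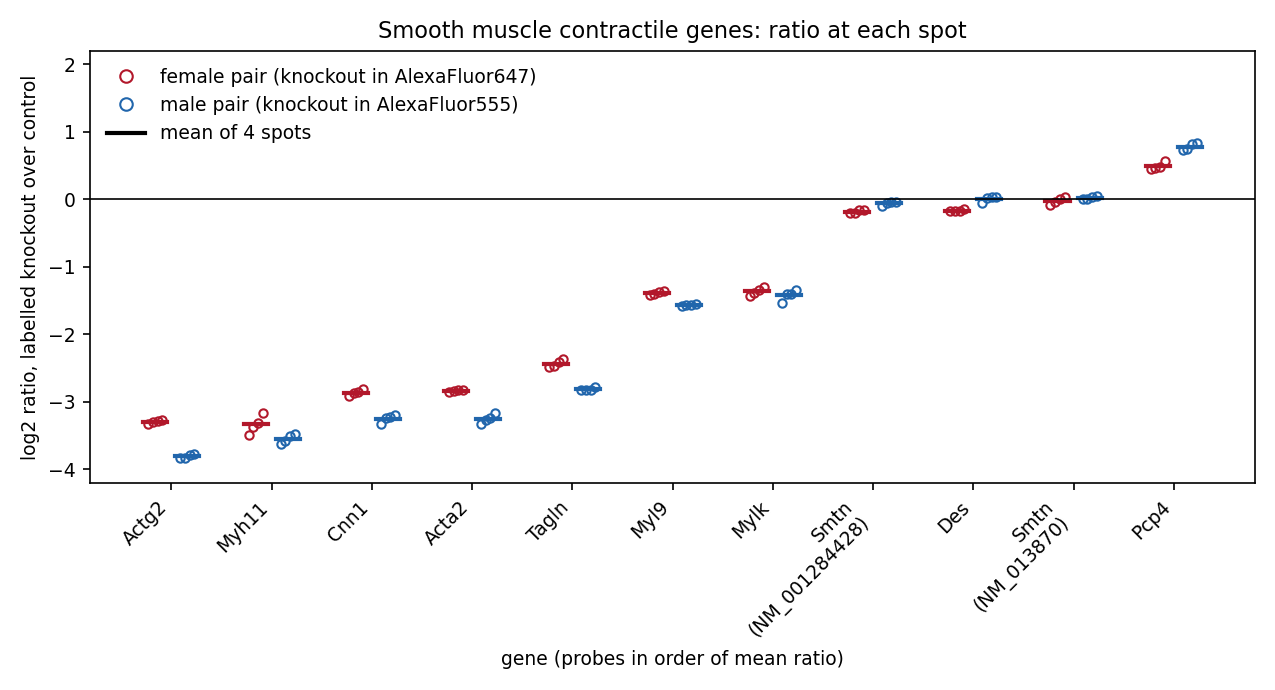
Log2 ratio of labelled knockout over control for each spot of each member probe, with the female pair and the male pair in separate colours and the mean of each pair drawn as a line. The 56 spots of the 7 lost genes lie between -3.84 and -1.30, those of Smtn and Des lie around 0, and those of Pcp4 lie above 0.

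Promoters are shown because several members are textbook targets of Srf, and because genes that fell and a gene that rose can be set side by side. Windows of 250 bases before to 50 bases after the start were taken from RefSeq (GRCm38.p6), and 7 of the 10 genes matched. Actg2, Myh11 and Tagln had no match. Each line gives the 250 bases before the start, 5′ to 3′ on the gene's strand, and the capitals mark CArG boxes, exact or with 1 mismatch. The windows are chr19:34255374-34255623 on the minus strand for Acta2, chr2:156775214-156775463 on the plus strand for Myl9 and chr16:96467356-96467605 on the plus strand for Pcp4.
Acta2: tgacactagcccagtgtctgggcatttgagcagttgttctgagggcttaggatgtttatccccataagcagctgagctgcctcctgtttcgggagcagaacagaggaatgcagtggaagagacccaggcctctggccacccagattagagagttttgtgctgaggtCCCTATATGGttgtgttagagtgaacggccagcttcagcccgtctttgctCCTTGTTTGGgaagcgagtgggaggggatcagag
Myl9: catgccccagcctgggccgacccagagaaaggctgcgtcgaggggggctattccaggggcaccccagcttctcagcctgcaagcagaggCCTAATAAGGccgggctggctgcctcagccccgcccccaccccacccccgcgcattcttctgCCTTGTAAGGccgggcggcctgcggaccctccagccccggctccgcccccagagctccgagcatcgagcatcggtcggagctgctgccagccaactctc
Pcp4: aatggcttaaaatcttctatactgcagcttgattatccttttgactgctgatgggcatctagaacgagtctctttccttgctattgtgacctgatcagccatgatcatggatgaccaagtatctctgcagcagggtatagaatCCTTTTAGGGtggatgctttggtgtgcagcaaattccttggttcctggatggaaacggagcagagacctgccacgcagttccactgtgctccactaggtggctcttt
The Acta2 window held a 1-mismatch CArG box at -84 to -75 and another at -34 to -25, counted back from the base before the start as -1. The Myl9 window held an exact CArG box at -161 to -152 and a 1-mismatch box at -99 to -90. The Pcp4 window, from the gene that rose, held a 1-mismatch box at -107 to -98. Cnn1, Mylk, Smtn and Des had no CArG box, exact or with 1 mismatch, in the same window. Of 32851 RefSeq windows of 300 bases, 1.63% held an exact box and 21.1% a box with at most 1 mismatch, on either strand, which read the same. The MCAT core CATTCC was found at -146 to -141 in Acta2, at -158 to -153 in Mylk and at -222 to -217 in Smtn, and in 14.7% of all windows. The T-box core TCACACC was in none of the 7 windows and in 3.98% of all windows. A CArG box and an MCAT core can share letters, but no matches overlapped in these windows. These matches describe letters in a window, not binding.

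**Figure D2:**
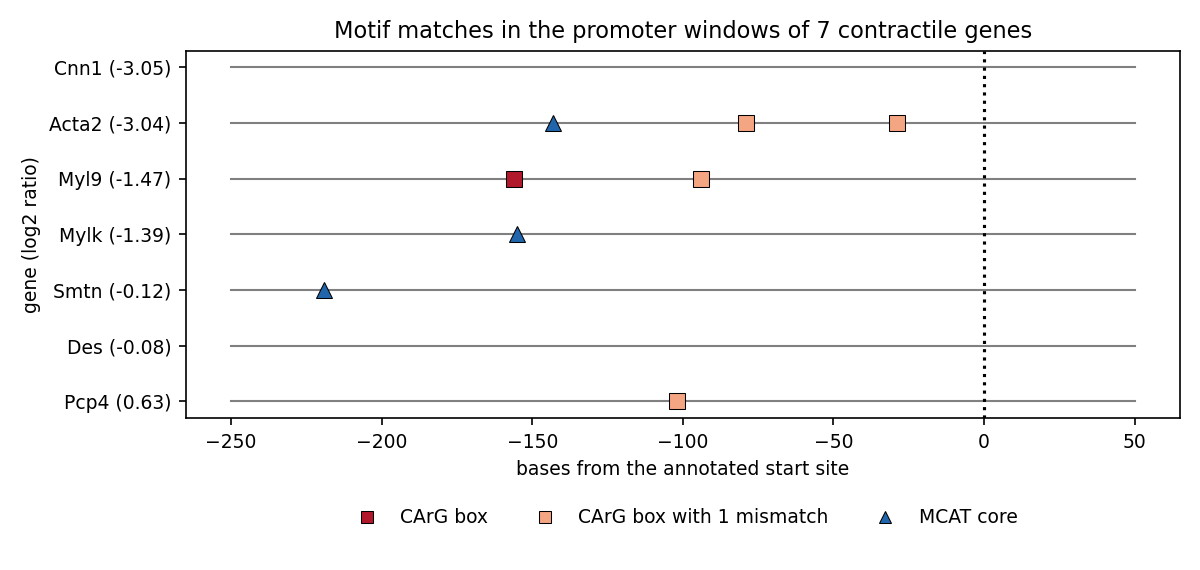
Positions of motif matches in the promoter windows of the 7 members with a RefSeq window, with distance from the start site in bases on the horizontal axis and 1 line per gene. Acta2 and Myl9 carry 2 CArG matches each, Pcp4 carries 1, and Cnn1 and Des carry none of the motifs searched.

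The smooth muscle actins form the thin filament. Acta2, the alpha actin of vascular and visceral smooth muscle (NM_007392), had log2 intensities of 16.38 in the female and 16.91 in the male control, and of 13.54 and 13.66 in the female and male knockout. These levels are normalized log2 intensities of 1 probe and can be compared between RNAs but not between genes. Both knockout RNAs lay far below both controls, with log2 ratios of -2.83 and -3.25. The mean was -3.04 ± 0.29 (SD, n = 2 pairs), or 8.22-fold lower, with an adjusted p of 5.46e-05 in limma. The residual level was 12.2% of control, with 14.1% for females and 10.5% for males. Actg2, the gamma actin of visceral smooth muscle (NM_009610), fell further. Its control levels were 14.20 and 14.56, and its knockout levels 10.91 and 10.75. The log2 ratios were -3.29 and -3.81, with a mean of -3.55 ± 0.36 (adjusted p = 5.46e-05 in limma). This left 8.53% of the control level, the lowest share among the members. For Acta2 and Actg2 alike, signal shared between the probes of similar actins could not be checked.

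Cnn1 and Tagln bind along the actin filament. Cnn1, calponin 1, which inhibits the myosin ATPase on actin (NM_009922), had log2 levels of 13.99 and 14.47 in the controls and of 11.13 and 11.23 in the knockouts. Its mean log2 ratio was -3.05 ± 0.27 (limma, adjusted p = 5.46e-05, n = 2 pairs), which left 12.04% of control. In the female pair 13.8% was left and in the male pair 10.5%, close to the shares for Acta2. Tagln, transgelin or SM22, an actin-bundling protein of early smooth muscle (NM_011526), had control levels of 15.00 and 15.24 and knockout levels of 12.57 and 12.43. Its mean log2 ratio was -2.62 ± 0.26 (limma, adjusted p = 8.76e-05, n = 2 pairs), or 6.15-fold lower. It kept 16.3% of the control level.

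Genes of the thick filament and of its switch fell by unequal amounts. Myh11, the heavy chain of smooth muscle myosin and a marker of the mature cell (NM_001161775), had control levels of 11.94 and 12.51 and knockout levels of 8.61 and 8.96. Its log2 ratios of -3.33 and -3.55 averaged -3.44 ± 0.15 (limma, adjusted p = 1.93e-05). The residual was 9.22% of control, a 10.9-fold loss. The knockout signals still stood 1.73 and 2.27 log2 units above the dimmest signal well above background, so the residual is not a detection bound. The offset of 50 added to both signals in background correction moves the ratio of a dim probe toward 0, so the residual may be overstated. Under other processing the mean log2 ratio ran from -3.68 to -3.41. Myl9, the regulatory light chain that the kinase phosphorylates (NM_172118), fell less, from 17.09 and 17.13 to 15.70 and 15.56. Its mean log2 ratio was -1.47 ± 0.12 (limma, adjusted p = 0.000221, n = 2 pairs), and 36.0% was left. Mylk, which encodes the kinase (NM_139300), fell from 11.31 and 11.42 to 9.94 and 10.001. Its log2 ratios of -1.36 and -1.42 were the closest to each other among the 7 losses, with a mean of -1.39 ± 0.040 (limma, adjusted p = 0.000186). It kept 38.1% of the control level, and both knockouts lay below both controls for all 7 genes.

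**Figure D3:**
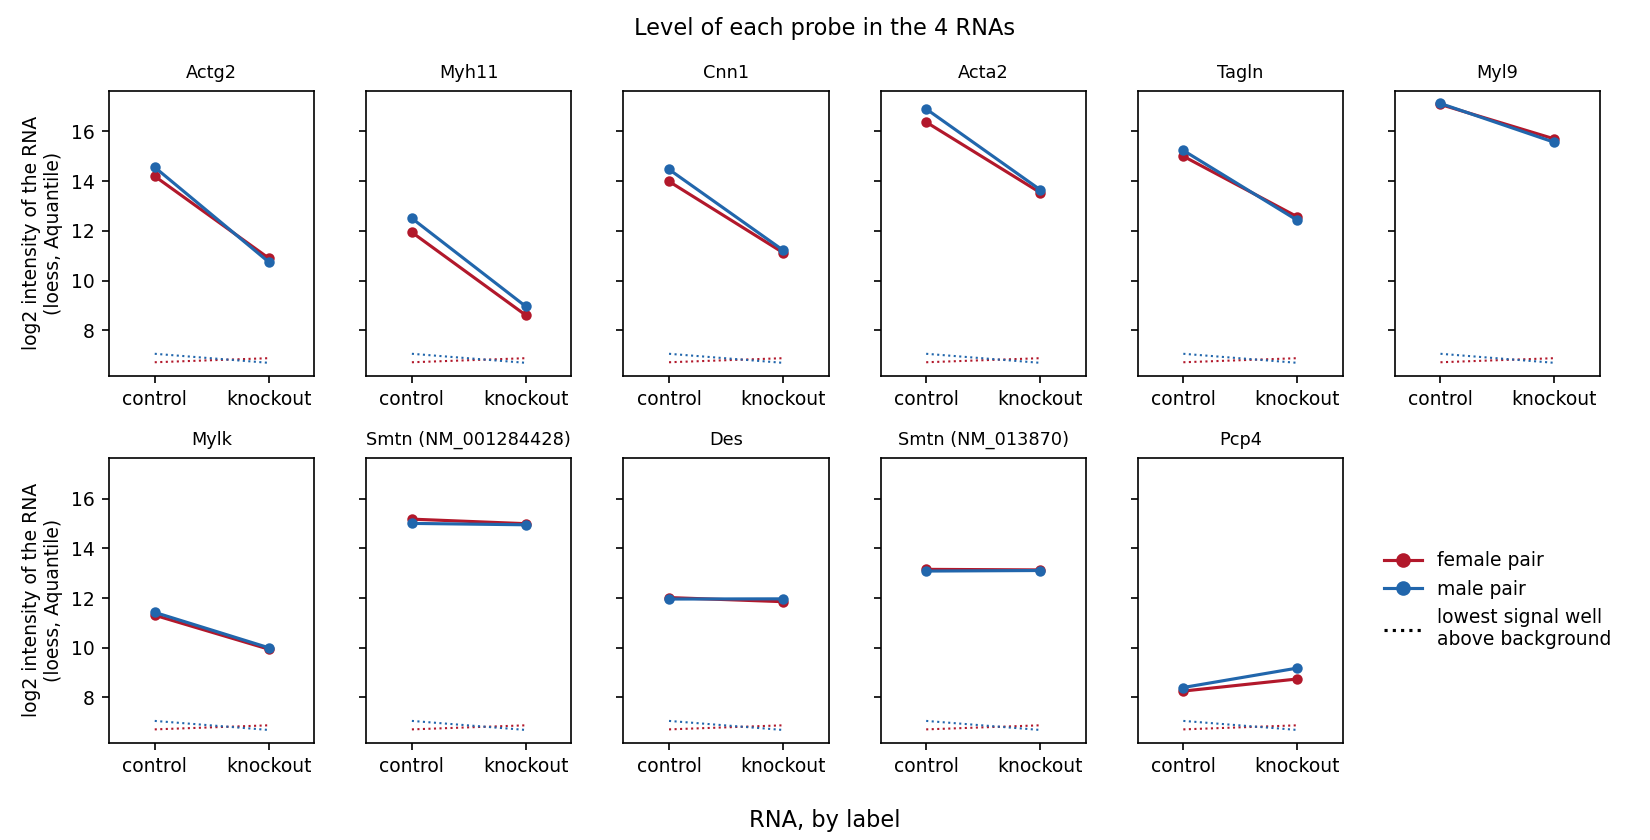
Normalized log2 intensity of each member probe in the 4 RNAs, with control and labelled knockout joined by a line and the female and male pairs in separate colours. Dotted lines mark the lowest signal well above background. For the 7 lost genes the 2 knockout points lie below the 2 control points, and for Pcp4 they lie above them.

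Smtn and Des did not pass the test. Smtn encodes smoothelin, an actin-binding protein of contractile smooth muscle. Its brighter probe (NM_001284428) had control levels of 15.17 and 15.00 and knockout levels of 14.99 and 14.95. All 4 RNAs lay close together, though both knockouts lay below both controls, with log2 ratios of -0.18 and -0.056. The mean log2 ratio was -0.12 ± 0.089 (limma, adjusted p = 0.591, n = 2 pairs), with a 95% interval of the knockout level from 81.9% to 103.5% of control. Its dimmer probe (NM_013870) had levels of 13.15 and 13.08 in the controls and of 13.13 and 13.11 in the knockouts. Its interval ran from 89.5% to 111.7% of control (limma, adjusted p = 0.999, n = 2 pairs). Both intervals lay above the residual level of Mylk, which fell least among the 7. Des, desmin, the intermediate filament protein of muscle (NM_010043), had control levels of 12.02 and 11.96 and knockout levels of 11.85 and 11.97, and the groups overlapped. Its mean log2 ratio was -0.079 ± 0.12 (limma, adjusted p = 0.824, n = 2 pairs), with an interval from 83.7% to 107.1% of control.

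Pcp4, a small calmodulin-binding protein also called PEP-19 (NM_008791), rose. Its levels were 8.26 and 8.40 in the controls and 8.74 and 9.18 in the knockouts, so both knockouts lay above both controls. The log2 ratios of 0.49 and 0.78 averaged 0.63 ± 0.21 (limma, adjusted p = 0.0126), or 155% of the control level. The call was lost in 3 alternatives, with adjusted p of 0.0506 from the deposited table and 0.115 without pairing in limma, and at a threshold of 0.01. Markers of neurons and glia moved with it: 2 of 8 rose, Prph (0.69) and Fabp7 (0.71), and 0 fell. Their summed log2 level was 15.55 and 15.40 in the knockouts and 15.46 in both controls, and all 8 passed the filter on dim probes. The part of nerve cells in the Pcp4 value was not tested.

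With Smtn taken by its brighter probe, the members ranked by loss as Actg2, Myh11, Cnn1, Acta2, Tagln, Myl9, Mylk, Smtn, Des and Pcp4. The dimmer Smtn probe (-0.00027) lay behind Des (-0.079). Some neighbours in this order did not differ beyond their spread. Actg2 and Myh11 differed by 0.11 ± 0.21 log2 units, Cnn1 and Acta2 by 0.014 ± 0.022, and Myl9 and Mylk by 0.082 ± 0.084 (SD over 2 pairs). Smtn and Des differed by slightly more than their SD, 0.041 ± 0.034. Wider steps separated Tagln from Myl9 (1.15 ± 0.14), Mylk from Smtn (1.27 ± 0.13) and Des from Pcp4 (0.71 ± 0.085). Smaller steps that still exceeded their SD lay between Myh11 and Cnn1 (0.39 ± 0.12) and between Acta2 and Tagln (0.42 ± 0.030). None of these steps was tested. Of the 45 possible pairs of members, 43 stood in the same order in the female and the male pair. The exceptions were Actg2 with Myh11 and Cnn1 with Acta2. The order was the same in 13 of 15 other ways of processing. Those that change only filters, variance models, pairing or thresholds leave the members' ratios as they are, so their order was fixed in advance. Among those that can move the ratios, it was unchanged without background subtraction and with the median of pixels. It was also unchanged with median centring and with scaling between arrays. In the scanner software's processed signals and in the deposited table, Myh11 moved ahead of Actg2 and Mylk ahead of Myl9.

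Against the whole array, the 7 lost members stood near the end of the distribution of losses. Their probes ranked 2, 3, 4, 5 and 8 of 25934 for Actg2, Myh11, Cnn1, Acta2 and Tagln, and 26 and 29 for Myl9 and Mylk. The other members did not: the Smtn probes ranked 3111 and 13136, Des 5027, and Pcp4 25795, on the side of the gains (percentile 99.5 from the lowest). A loss of 4-fold or more in each of the 2 pairs was met by 11 of 15461 genes (0.0711%), and 5 of these were members. The other 6 were C1ql3, Fbxl22, Alx1, Myocd, Colq and Car3.

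All 7 lost members fell further in the male pair than in the female pair, against 53.7% of the 499 probes called lower. The gap ran from 0.057 log2 units for Mylk to 0.51 for Actg2. For the 5 genes with the deepest loss the male control level was higher by 0.36 for Actg2, 0.56 for Myh11, 0.48 for Cnn1, 0.53 for Acta2 and 0.23 for Tagln. Between the knockouts the male level differed by -0.15, 0.35, 0.097, 0.11 and -0.14 in the same order. Each sex has 1 pair and the dyes were swapped between them, so these differences were not tested.

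**Figure D4:**
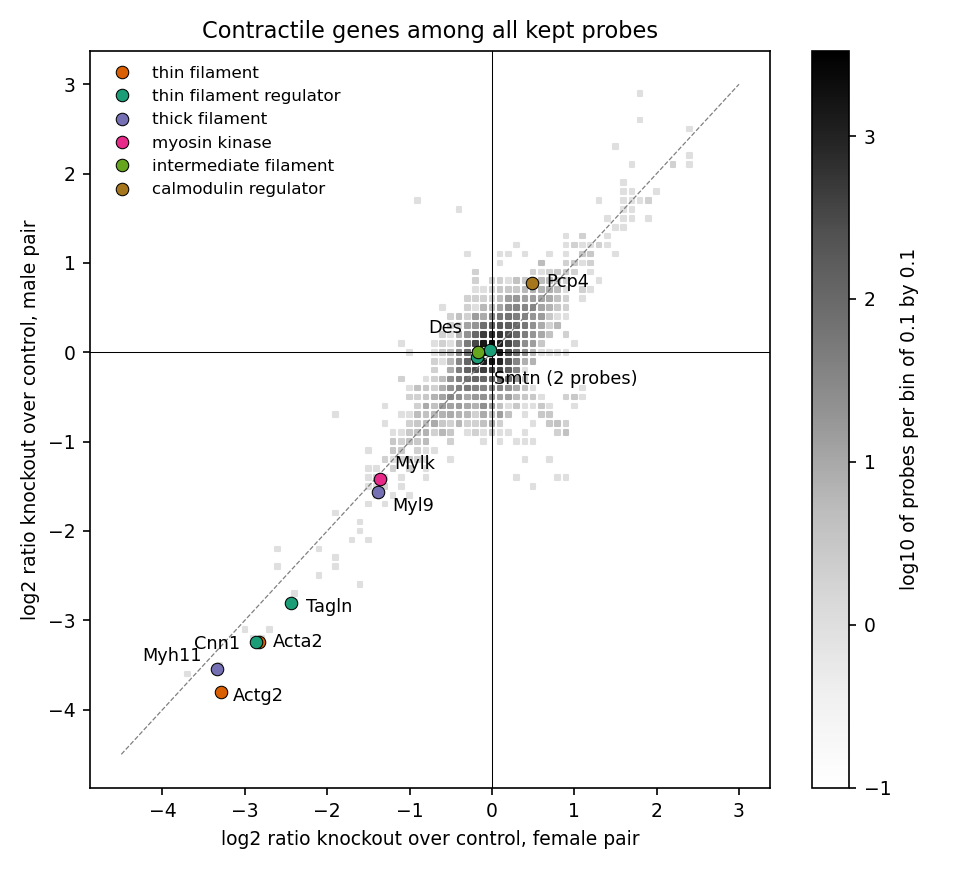
Log2 ratio in the male pair against that in the female pair, with counts of all kept probes in bins of 0.1 as grey shading and the member probes named and coloured by role. The 7 lost members lie at the lower left, each below the line of equal ratios, whereas Smtn and Des lie in the central cloud and Pcp4 above it.

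By the rule of nearest pairs of log2 ratios, measured as Euclidean distance over 2 pairs, 6 genes were taken. Those closest to the median of the lost members (-2.83 female, -3.25 male) were Alx1, Fbxl22, Myocd, C1ql3, Car3 and Colq. They are the same 6 genes that stood beside the members at a loss of 4-fold or more, so the 2 lists are not separate results. Alx1, a homeobox transcription factor, lay at a distance of 0.17 with a mean log2 ratio of -2.92 ± 0.26. Fbxl22, an F-box protein of the muscle Z-disc, lay at 0.21 with -3.02 ± 0.083. Myocd, the coactivator of Srf, lay at 0.83 with -2.53 ± 0.11. C1ql3, Car3 and Colq lay at 0.94, 0.98 and 1.07. With the scanner software's processed signals, the loss was deeper for Alx1 (-3.52), Myocd (-3.18) and C1ql3 (-4.37), and the deposited table gave -3.54, -3.18 and -4.36. The distances were not recomputed with those values.

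Other genes of contraction were read from lists of 86 genes outside the members, of which 78 passed the filter. Of these, 20 fell, 1 rose and 57 did not pass (limma, adjusted p under 0.05, n = 2 pairs), with a median log2 ratio of -0.065. Members and lists thus differed in their median, -2.05 against -0.065, with no test made of that difference. Among other thin filament proteins 4 of 10 fell. Tnnt2, the cardiac troponin T also made in embryonic muscle, fell by 2.14 on the log2 scale, Tpm2, a tropomyosin, fell by 0.81 and Cnn2, a broadly expressed calponin, fell by 0.57.

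Among other actins 2 of 4 fell, the striated muscle actins Acta1 (-2.06 ± 0.69) and Actc1 (-1.26 ± 0.43). Their coding sequences are similar to those of Acta2 and Actg2, so that signal may be shared between probes. This could not be checked, and the values of Acta1, Actc1, Acta2 and Actg2 all carry that uncertainty. The cytoplasmic actins Actb (0.051) and Actg1 (-0.0094) did not pass. Markers of skeletal muscle, another source of striated actins, gave 0 lower and 0 higher of 6 that passed the filter (limma, adjusted p under 0.05), and 2 of 6 had an unadjusted p under 0.05. Their summed log2 level was 12.44 and 12.50 in the knockouts and 12.54 and 12.55 in the controls, and Ckm and Myf5 were not well above background. The part of skeletal muscle in the actin values was not tested.

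Among other myosins 2 of 12 fell, the atrial and embryonic light chains Myl4 (-0.74 ± 0.20) and Myl7 (-0.42 ± 0.078), while the non-muscle heavy chains Myh9 (-0.052) and Myh10 (-0.19) did not pass. Among genes that set myosin phosphorylation beside Mylk, such as the phosphatase subunits, 0 of 14 fell and 0 rose (limma, adjusted p under 0.05), and 4 of 14 had an unadjusted p under 0.05. Their median log2 ratio was -0.021. Among proteins that anchor filaments to the membrane and plaques, 7 of 19 fell and 1 rose. Synpo2, an actin-binding protein of the Z-disc, fell by 1.48, the small heat shock protein Hspb6 fell by 0.72 and Pdlim3 fell by 0.62. Vim (0.12) and Synm (0.28), intermediate filament partners of Des, did not pass. Itga7, an integrin of muscle cells, rose by 0.35.

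Among transcription factors of smooth muscle 3 of 9 fell. Myocd fell by 2.53 on the log2 scale (SD 0.11), Foxf1, a forkhead factor of visceral mesenchyme, fell by 0.49, and Srf itself fell by 0.36. Srf was close to the threshold (adjusted p = 0.0473, limma), where calls are uncertain. That value is from its brighter probe, and its dimmer probe had a log2 ratio of -0.18. In simulated data, whose settings differed from these data, the test let through too many unchanged probes. Among genes of calcium handling 2 of 10 fell, Kcnmb1 (-0.96 ± 0.16), a subunit of the large-conductance potassium channel, and Ryr2 (-0.66 ± 0.35), a calcium release channel. Some of these calls were lost under other processing. With median centring in place of loess, Cnn2, Foxf1, Myl7, Ryr2 and Srf no longer passed. With the deposited table, Actc1, Foxf1, Hspb6, Myl4, Pdlim3, Ryr2 and Srf no longer passed, and with robust eBayes Acta1 and Ryr2 did not.

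**Figure D5:**
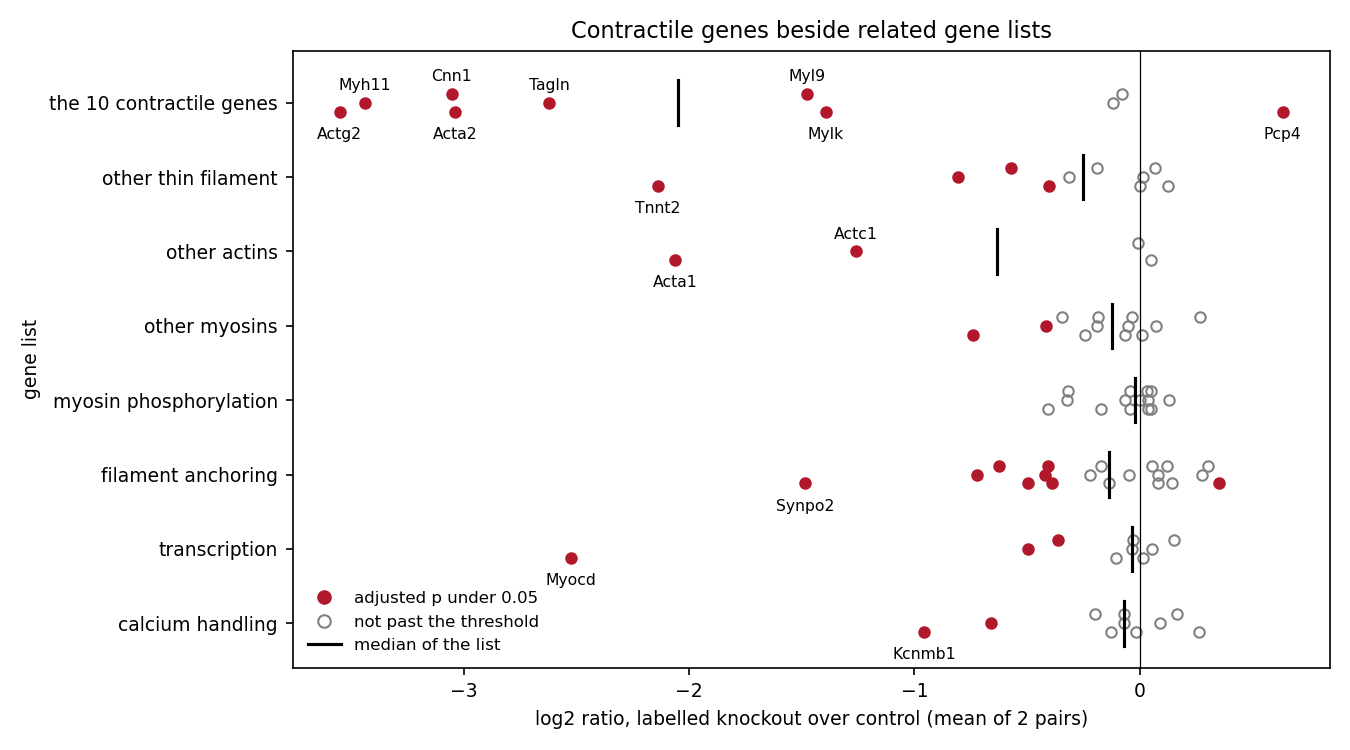
Log2 ratio of labelled knockout over control for each kept gene of the members and of the lists of other contractile genes, by list, with genes called lower or higher marked. The members hold 7 called lower of 10, and the list of myosin phosphorylation holds 0 of 14.

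Markers of other cells of the ureter were read in the same way. Of 8 urothelial markers 0 fell and 0 rose, with summed log2 levels of 15.56 and 15.51 in the knockouts and 15.48 and 15.57 in the controls. Endothelial and leukocyte lists of 8 genes each also had 0 calls (limma, adjusted p under 0.05). At an unadjusted p under 0.05, 3, 2 and 5 genes of these 3 lists passed. Leukocyte markers summed to 14.89 and 14.91 in the knockouts and 14.70 and 14.75 in the controls, so both knockouts lay above both controls. Endothelial markers summed to 16.71 and 16.96 in the knockouts and 16.63 in both controls. Pericytes also use several members of the contractile set. Of 6 pericyte markers, 1 rose (Kcnj8, 0.44) and 0 fell, with sums of 15.49 and 15.40 in the knockouts against 15.37 and 15.21 in the controls. Of 8 markers of ureteric mesenchyme 2 fell (Foxf1 and Pdgfra) and 1 rose (Osr1), and the sums were 18.64 and 18.62 against 18.69 and 18.68. Of 8 kidney nephron markers 5 passed the filter, and 0 fell or rose in limma, with 1 at an unadjusted p under 0.05. Their sums were 13.61 and 13.79 in the knockouts and 13.57 and 13.44 in the controls, and Nphs1, Slc34a1 and Umod were not well above background. All markers of the other 5 lists passed the filter on dim probes, and the part of these cell types in the members' losses was not tested.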

How the data were processed

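RNA of 4 ureter samples was read on 2 two-colour arrays from 1 scan, and the submitters' processing notes name Agilent Feature Extraction, version 10.7.3.1. Deposited scanner output gives raw spot and local background intensity, and also signals already corrected for background and dye by that software, per the file headers. The authors' value table, with a signed fold ratio for every probe, served only as an alternative. Its scale and centring are unknown, its median was 1, and 33.7% and 34.1% of the values per array were exactly 1, and its direction followed from correlations with the processed signals of 0.982 and 0.985 over the 24806 probes that were clearly detected with both dyes on each array (0.576 and 0.456 over all probes).

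Mean intensities were corrected with normexp (offset 50), normalized by loess within arrays, averaged over 4 spots and turned to labelled knockout over control as log2. Non-uniform spots were left out. Probes were kept with over 0.5 of spots well above background in 1 group on both arrays. Levels per RNA came from Aquantile scaling of the loess values. RefSeq names (GRCm38.p6) matched 28328 of 39429 probes, and the brightest probe stood for a gene in lists. The test was limma's (version 3.58.1, R 4.3.3) with Benjamini-Hochberg adjustment over 25934 probes. Residual degrees of freedom numbered 1 and prior ones 5.65, and each p-value therefore rests mostly on the variance shared by all probes. The pairing comes from the shared array, which carries 1 knockout and 1 control RNA of 1 sex. Nothing in the labels says that RNAs came from separate animals, and p-values then measure only the spread between these samples.

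Named genes were all members, Tbx2 and Tbx3, the 6 genes nearest to the lost members, and up to 3 genes per list with the largest change past the threshold. Other genes were named after their values were seen. Members and lists were chosen with earlier results of these data known. The procedure was tested on simulated data, where more unchanged probes were called than the adjusted p threshold allows, so calls near the threshold are uncertain. Unchanged probes made up 17.7% of the calls there. The simulated fit had 11.4 prior degrees of freedom against 5.65 in the data, so this share does not carry over to the data. Alternatives covered background correction, dye normalization, scaling, filters, variance models, thresholds, the deposited table and each replicate left out.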

Additional observations from a re-analysis of the deposited data

Results flagged for a closer look

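For 2 member probes, the female and the male pair moved in opposite directions. Des had log2 ratios of -0.17 (female) and 0.0083 (male), which differ by 0.17. For the dimmer Smtn probe (NM_013870) they were -0.023 and 0.022, which differ by 0.045. Neither difference was tested, since each sex has 1 pair and the dye orientation differs with it.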

How the results depend on the processing

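Member probes called lower numbered 7 under all 15 alternatives, and the 7 genes kept their calls, with mean log2 ratios from -3.68 to -3.41 for Myh11, -3.60 to -3.52 for Actg2 and -1.51 to -1.36 for Mylk. Member probes called higher went from 1 (Pcp4) to 0 at adjusted p under 0.01, in the deposited table and without the pairing (no replicate block). Each of those counts is from limma, and Pcp4 had an unadjusted p of 0.000221 as reported. With each replicate left out, 1 pair stayed and gave values with no test, from -2.83 to -3.25 for Acta2 and 0.49 to 0.78 for Pcp4. Probes called lower, 499 as reported, numbered 220 at adjusted p under 0.01, 197 in the deposited table, 202 with median centring, 302 with processed signals and 267 without the replicate block. Probes called higher, 487 as reported, numbered 179, 178, 176, 305 and 239 in the same order, and 737 at adjusted p under 0.1. Other contractile genes called lower, 20 as reported, numbered 11, 8, 10, 11 and 13 in that order. Those called higher, 1 as reported, numbered 0 in all 5, and 2 at adjusted p under 0.1 or with no filter. The causes were not tested. Of 15 genes named from the contractile lists, 10 lost their call in at least 1 alternative and 0 changed sign. Acta1 did so with robust eBayes (adjusted p = 0.201, limma), and Ryr2 had a log2 ratio of -1.25 with processed signals. With 2 arrays, the number of pairs limits precision.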
